A study of Mus musculus with 2 samples.

Results

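The genes described here are 4 major urinary protein genes, Mup3, Mup11, Mup14 and Mup20, and Obp2a, which encodes an odorant-binding protein. They were taken by symbol from the deposited table, which makes 5 of its 32285 genes, and they had been picked because their levels differed between the libraries, so every difference between the libraries below is a description and none was tested. The study profiled liver cells of male mice by droplet-based single-cell RNA sequencing after 2 weeks on a 40% HFCFD, a diet high in fat, cholesterol and fructose that is used to promote steatohepatitis. The labels name 1 library from a mouse with a knockout of Cebpa (labelled Cebp KO) and 1 from a wild-type mouse (labelled Cebp WT), and both mice received the diet. Per the study's methods the knockout was specific to hepatocytes, with Cre driven by albumin in Cebpa fl/fl mice backcrossed to C57BL/6N. The labels give neither ages nor whether the wild-type mouse carried the floxed allele.

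Both libraries are held in 1 table, and a barcode's suffix, 1 or 2, tells them apart. No label ties a suffix to a genotype. The libraries are therefore called by their suffix throughout, no genotype was inferred for them, and a ratio compares 2 libraries and not 2 genotypes. With 1 library each, no replicate error could be had. Intervals in parentheses are exact 95% Poisson intervals for levels and exact binomial intervals for shares, and they cover counting error only.

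Major urinary proteins are small secreted lipocalins, barrel-shaped carriers that bind hydrophobic molecules. Mouse hepatocytes make them in large amounts, they pass through the kidney into urine, and there they bind and slowly release volatile pheromones. Their genes lie in a tandem array of near-identical copies, and male-type growth hormone pulses and androgen raise the output of many of them. Mup20 encodes darcin, a male pheromone protein in its own right, and Obp2a encodes a lipocalin named for odorant binding.

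In the GENCODE annotation of GRCm38, 22 Mup genes with a position spanned chromosome 4 from 59956804 to 62150863, and 21 of them lay on the minus strand. Mup11 (ENSMUSG00000073834) lay at 60658466 to 60662411 and Mup14 (ENSMUSG00000073830) at 61300023 to 61304000, both in the middle of the array. Mup20 (ENSMUSG00000078672) lay at 62050234 to 62054158 and Mup3 (ENSMUSG00000066154) at 62083476 to 62087342, so these 2 genes were neighbours towards the far end. Only Mup21 followed them. Obp2a (ENSMUSG00000062061) lay elsewhere, on chromosome 2 at 25700043 to 25703326 on the plus strand. Each of the 5 genes was annotated as protein coding with 7 exons in its longest form, and none overlapped another annotated gene on either strand.

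The promoter windows below show how alike the genes are before their transcripts start, including Mup11 and Mup14, whose levels differed in opposite directions between the libraries. RefSeq windows of 300 bases were found for 4 of the 5 genes, with 250 bases before and 50 after the annotated start. They are given 5′ to 3′ on the gene's strand for Mup3 (chr4:62087268-62087567, minus strand), Mup11 (chr4:60662346-60662645, minus strand), Mup14 (chr4:61303949-61304248, minus strand) and Obp2a (chr2:25699824-25700123, plus strand) in build GRCm38.p6. Capitals mark the letters TATATAA, which match the box that positions many promoters and were added to the search after the sequences had been seen.
Mup3: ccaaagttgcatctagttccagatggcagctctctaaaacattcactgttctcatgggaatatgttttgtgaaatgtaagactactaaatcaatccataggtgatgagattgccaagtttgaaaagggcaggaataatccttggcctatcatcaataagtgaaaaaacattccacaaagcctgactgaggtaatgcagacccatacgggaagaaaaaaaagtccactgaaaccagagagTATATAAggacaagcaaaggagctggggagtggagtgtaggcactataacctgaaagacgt
Mup11: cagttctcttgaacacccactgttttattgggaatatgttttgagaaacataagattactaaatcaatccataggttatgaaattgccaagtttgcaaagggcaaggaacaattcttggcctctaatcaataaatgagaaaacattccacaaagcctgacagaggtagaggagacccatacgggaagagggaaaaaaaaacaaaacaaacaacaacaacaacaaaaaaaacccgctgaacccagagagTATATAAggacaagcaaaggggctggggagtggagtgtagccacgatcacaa
Mup14: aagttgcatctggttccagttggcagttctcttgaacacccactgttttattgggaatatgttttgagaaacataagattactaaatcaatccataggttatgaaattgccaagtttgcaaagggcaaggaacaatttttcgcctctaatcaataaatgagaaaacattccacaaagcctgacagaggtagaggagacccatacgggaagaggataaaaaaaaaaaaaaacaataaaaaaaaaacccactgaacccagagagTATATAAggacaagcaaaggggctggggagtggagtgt
Obp2a: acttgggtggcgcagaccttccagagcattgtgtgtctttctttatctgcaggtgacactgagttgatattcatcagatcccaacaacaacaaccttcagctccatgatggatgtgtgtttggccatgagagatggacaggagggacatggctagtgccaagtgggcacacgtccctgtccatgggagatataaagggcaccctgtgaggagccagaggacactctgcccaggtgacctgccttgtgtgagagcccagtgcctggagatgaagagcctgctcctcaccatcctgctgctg

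Mup11 and Mup14 shared 270 of 277 aligned bases (97.5%). Mup3 shared 232 of 265 aligned bases with Mup11 (87.5%) and 241 of 274 with Mup14 (88.0%). The first base of TATATAA lay 11 bases before the annotated start in Mup3, 2 bases before it in Mup11 and at base 13 of the annotated transcript in Mup14, so the annotated starts of the 3 genes are not at the same place in the shared sequence. The motif was found, on either strand, in 13 of 14 Mup windows and in 3.24% of all 32851 windows. The letters TTGCNNAA (a C/EBP-type motif, in 10.8% of all windows) and TTCNNNGAA (a STAT5-type motif, in 8.30%), searched on both strands, were in none of the 14 Mup windows and not in that of Obp2a, which says only that these letters are not in these 300 bases.

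Because the array holds near-identical copies, the 3′ ends that the assay reads were compared too. In the last 400 bases of the longest coding transcript, every window of 91 bases of Mup3 and of Obp2a was found in no other annotated gene. For Mup20, 88.1% of windows were unique, and the rest were shared with 1 pseudogene, Mup-ps19. For Mup11 only 41.3% were unique, and for Mup14 none were. With windows of 50 bases the unique share was 95.4% for Mup3 (the rest shared with Mup4 and Mup5), 71.5% for Mup20 (shared with 22 genes, Mup3 among them), 27.6% for Mup11, 0% for Mup14 and 100% for Obp2a. Counts of Mup11 and above all of Mup14 are therefore uncertain, since reads from other copies could be given to them or theirs lost, while those of Mup20, Mup3 and Obp2a rest mostly on sequence of their own.

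Hepatocytes were taken by a gate on 10 marker genes, none of them a member, that together had to make up at least 5% of a cell's UMIs (unique molecular identifiers, each counting 1 captured molecule). Cells of at least 5000 UMIs are called deep hepatocytes here. There were 644 with suffix 1 (median 24687.5 UMIs, 14970823 UMIs in all) and 620 with suffix 2 (median 12133 UMIs, 8909294 in all). Their median mitochondrial shares were 16.0% and 14.8%, after an upper limit on that share. Over all barcodes the medians were 4.07% with suffix 1 and 41.3% with suffix 2. Without the limit, deep hepatocytes numbered 1126 and 1645, so it left out more of them with suffix 2. All 10 markers were detected in each library, each in at least 98.4% of deep cells, and Alb (albumin) stood at 38003 and 40413 UMIs per 1000000 (CPM). Defining markers of other cell types were present too. Those of erythroid cells, which the limit on other classes did not count, had the highest sums, at 1265 and 701 CPM, with none of 5 at 0 and single markers in up to 84.9% and 49.2% of deep cells. Those of Kupffer cells and macrophages summed to 82.4 and 266 CPM, with none of 8 at 0, and those of cholangiocytes to 9.15 and 1.57 CPM, with 1 and 2 of 6 at 0. The part of these markers in the results was not tested. Cebpa, the targeted gene, stood at 1.47 CPM (22 UMIs) with suffix 1 and 108 CPM (966 UMIs) with suffix 2. A further 8953 and 3737 hepatocyte-gated cells were shallow, with medians of 1154 and 1271 UMIs. The libraries shared 81 barcode sequences, of which 6 and 4 belonged to deep hepatocytes.

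Mup20 had the highest level of the 5 genes in deep hepatocytes of both libraries. In shallow hepatocyte-gated cells and lymphocytes of suffix 2, Mup3 had more UMIs than Mup20 (104099 against 101776 and 10472 against 8841). Deep hepatocytes of suffix 1 had 35317 CPM of it (35222 to 35412), and only 1 gene had more UMIs there. Those of suffix 2 had 15539 CPM (15457 to 15621), where it ranked 11. The level was 2.27 times higher with suffix 1 (2.26 to 2.29). With a mitochondrial limit of 10% in place of 25%, which kept 147 and 209 cells, it stayed higher with suffix 1 but by less than 2-fold (log2 ratio -0.75). Every deep cell of both libraries held Mup20, with a median of 797.5 UMIs per cell with suffix 1 and 158 with suffix 2, at different depths. Lymphocyte-gated cells held it in 100% of cells of both libraries too, so its detection does not set hepatocytes apart.

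Mup3 showed the opposite difference. Its level was 1773 CPM (1751 to 1794) with suffix 1, rank 57 (1041 CPM with the lymphocyte level subtracted), and 11210 CPM (11141 to 11280) with suffix 2, rank 13. The level was thus 6.32 times higher with suffix 2 (6.24 to 6.41). Each deep cell held Mup3 as well, with a median of 29 UMIs with suffix 1 and 130 with suffix 2, although the cells with suffix 2 were the shallower ones. It was also detected in 97.2% and 100% of lymphocyte-gated cells.

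Obp2a was far less abundant. Suffix 1 had 99.3 CPM of it (94.3 to 105, 1487 UMIs), and suffix 2 had 22.7 CPM (19.7 to 26.0, 202 UMIs). It was 4.33 times higher with suffix 1 (3.78 to 5.10). Without the 1 cell that held 69 of the UMIs with suffix 1, the level there fell to 95.003 CPM. With the mitochondrial limit of 10% it was 64.9 CPM, and the log2 ratio was -1.34, still in favour of suffix 1.

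Mup11 and Mup14 had the fewest UMIs with suffix 1, while Mup11 and Obp2a were level with suffix 2, at 202 UMIs each. Mup11 was counted at 4.74 CPM (3.70 to 5.98, 71 UMIs) in suffix 1 and 22.7 CPM (19.7 to 26.0, 202 UMIs) in suffix 2, a ratio of 4.66 (3.63 to 6.36) in favour of suffix 2. Mup14 stood at 18.9 CPM (16.8 to 21.2, 283 UMIs) and 8.19 CPM (6.42 to 10.3, 73 UMIs), a ratio of 2.24 (1.78 to 3.03) in favour of suffix 1. With no mitochondrial limit Mup11 was at 7.31 and 61.7 CPM (log2 ratio 3.05), and with the limit of 10% it was at 40.5 CPM in suffix 2. With the CPM of lymphocytes subtracted, Mup11 came to -2.97 and -12.3 CPM, which leaves no ratio, and Mup14 to 10.3 and 1.67 CPM (log2 ratio -2.38). Both ratios carry the uncertainty about shared sequence given above, and that of Mup14 went below 2-fold, without changing direction, under 3 of the 15 other settings tried.

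Of the 5 members, 2 (Mup3 and Mup11) were at least 2-fold higher with suffix 2, where 4.27% of the 7098 genes compared were, and 3 (Mup14, Mup20 and Obp2a) at least 2-fold higher with suffix 1, where 2.03% were. Taken in either direction, 5 of 5 members stood against 6.3% of those genes. Genes were compared when they reached 10 CPM in either library, and 3 UMIs were added to both sums. Since the members were picked for this contrast, nothing follows from their share being above those percentages. The median log2 ratio over all genes compared was 0.02. Opposite differences partly offset each other in the sum of the 5 members, which came to 37212 CPM (37115 to 37310) in the library with suffix 1 and to 26803 CPM (26695 to 26910) in that with suffix 2. With the mitochondrial limit of 10% this order turned, at 25589 and 27661 CPM.

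**Figure D1:**
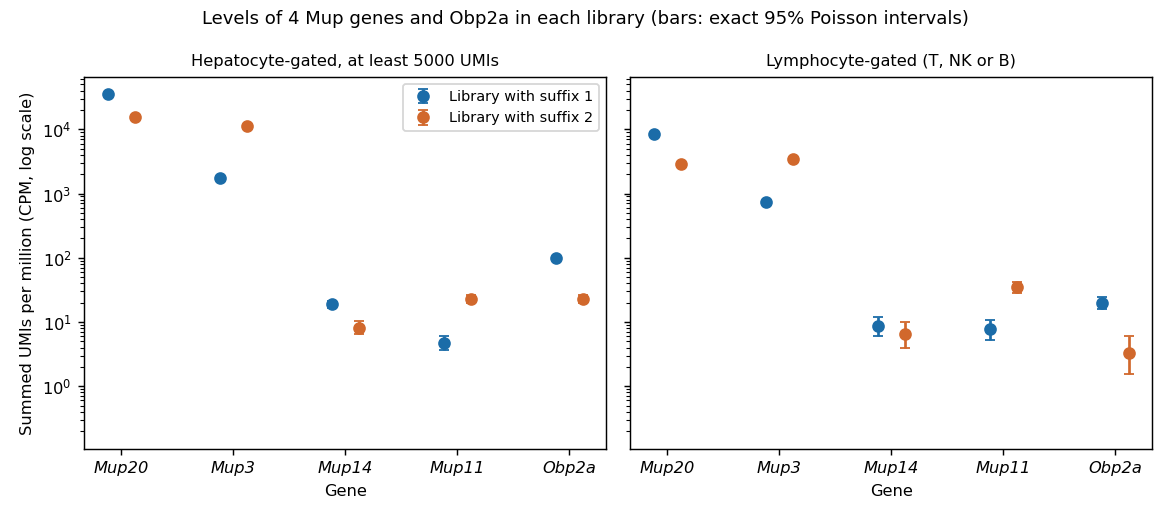
Levels of the 5 genes in deep hepatocyte-gated cells (left) and in lymphocyte-gated cells (right) of the libraries with suffix 1 (blue) and suffix 2 (orange), as CPM on a log scale with exact 95% Poisson intervals. Mup20 and Obp2a stand higher with suffix 1 and Mup3 and Mup11 higher with suffix 2 in both panels.

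Mup20 and Mup3 made up nearly all UMIs assigned to Mup genes in deep hepatocytes of both libraries, in different proportions. Gene length does not enter shares of 3′ tags, but the sharing of sequence does: 8 of the 22 genes have no unique window of 91 bases, against 100% unique windows for Mup3 and 88.1% for Mup20, so these are shares of assigned UMIs and need not be shares of the family's molecules. With suffix 1, Mup20 held 94.0% of the UMIs of the 22 Mup genes and Mup3 4.72%. With suffix 2, Mup20 held 56.1% and Mup3 40.5%. Mup21, the gene beyond Mup3 in the array, held 1.01% and 2.90%. Its level was 381 CPM (371 to 391) in suffix 1 and 802 CPM (783 to 821) in suffix 2, 2.11 times higher (2.03 to 2.18). In suffix 2, 1 cell held 226 Mup21 UMIs, and leaving that cell out gave 779 CPM.

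The remaining 19 Mup genes together held 0.249% and 0.528% of the UMIs assigned to the family, Mup11 and Mup14 among them. Mup1 was at 22.6 and 37.2 CPM, Mup12 at 21.9 and 27.9 CPM and Mup16 at 14.2 and 23.1 CPM (suffix 1, then suffix 2), each less than 2-fold apart. Mup7 was at 0.80 and 8.75 CPM, from 12 and 78 UMIs, and did not reach the 10 CPM needed for a comparison. Mup1 and Mup7 have next to no unique windows in their last 400 bases (0% and 0.968%). Mup15 had 0 UMIs in deep hepatocytes of either library and Mup13 had 0 and 1, but neither has a unique window in its last 400 bases, so these counts set no limit on their levels.

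Single cells differed between the libraries as the sums did. After every deep cell was thinned to 5000 UMIs, Mup3 as a share of Mup3 and Mup20 UMIs had a median of 4.74% over 636 cells with suffix 1 and 47.5% over 619 cells with suffix 2, counting cells with at least 20 UMIs of the pair. The shares ran from 0% to 30.9% with suffix 1. With suffix 2 they ran from 12.1% to 80%, so the ranges overlapped at their ends. Only 1 of the 636 cells with suffix 1 lay above the 10th percentile of suffix 2 (28.9%), and 0 of the 619 cells with suffix 2 lay below the 90th percentile of suffix 1 (10.6%). In counted UMIs, the difference between the sums was thus spread over the cells and did not come from a few of them. Gates of other cells, described below, differed in the same direction. Their Mup3 share of the pair lay between 6.83% and 8.04% with suffix 1 and between 50.4% and 56.1% with suffix 2. The part of the free RNA that cells of a library share in these single-cell values was not tested. Cells of 1 library are not replicates, and both shares describe these libraries.

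**Figure D2:**
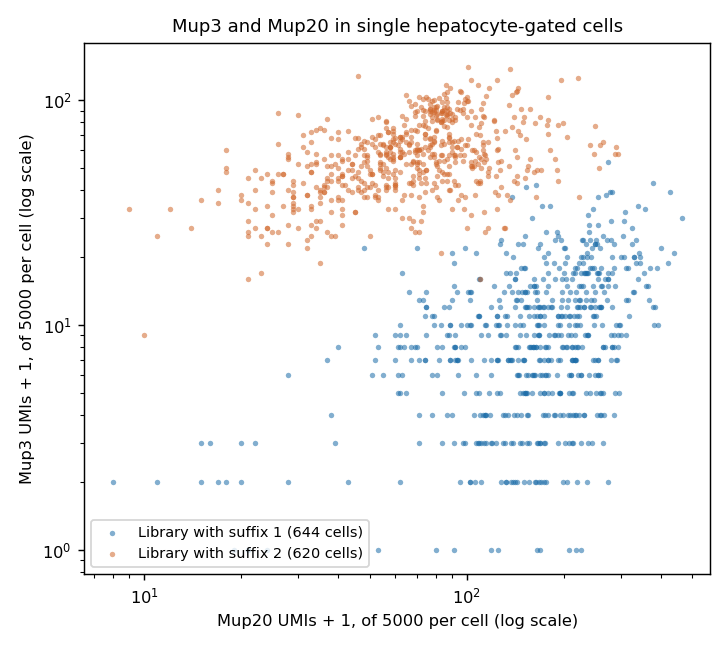
Each point is 1 deep hepatocyte-gated cell thinned to 5000 UMIs, with its Mup20 UMIs on the x axis and its Mup3 UMIs on the y axis (1 added to both, log scales), blue for suffix 1 and orange for suffix 2. The 644 and 620 cells form 2 clouds, with medians of 171 and 69 Mup20 UMIs and of 8 and 55 Mup3 UMIs.

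Mup20 varied moderately from cell to cell. Its thinned count had a mean of 178 and ran from 7 to 463 with suffix 1, and a mean of 75.2 and from 8 to 293 with suffix 2. The coefficient of variation (SD divided by the mean) was 0.445 and 0.581, against 0.422 and 0.387 for Alb in the same cells and 0.075 and 0.115 from counting alone.

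Mup3 was the more even of the pair where it was abundant and the more uneven where it was not. With suffix 2, its thinned count had a mean of 58.0, the 10th and 90th percentiles were 32 and 90, and the coefficient of variation was 0.383. With suffix 1 the mean was 9.84, 14 of 644 cells held none, and the coefficient was 0.777, against 0.319 from counting alone. Among genes with a mean within 3-fold, 78.8% of 179 had a lower coefficient than Mup3 with suffix 1 and 11.5% of 26 with suffix 2.

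Obp2a UMIs were concentrated in few cells with suffix 1. At 5000 UMIs per cell, 23.8% of the 644 deep cells held at least 1 UMI (20.5% to 27.2%), the 64 highest cells held 66.0% of all Obp2a UMIs, and 1 cell held 12. The variance was 2.38 times the mean, where 1 is the value of counting alone. Its coefficient of variation was 2.42, against a median of 2.02 over 3226 genes with a mean within 3-fold, of which 75.9% had a lower one. Without thinning, at a greater depth than with suffix 2, 37 of the 644 cells held 10 or more UMIs, and together 49.0% of the total. With suffix 2, 7.90% of 620 cells held a UMI (5.90% to 10.3%) and the variance was 1.10 times the mean. Without thinning, 18.7% of those 620 cells held a UMI, at a mean of 0.326 UMIs per cell, while 8 cells held 5 or more and the highest held 8. Mup11 and Mup14 had ratios of variance to mean from 0.97 to 1.12 in both libraries and no deep cell held more than 5 UMIs of either.

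The gene most like Mup20 across deep cells with suffix 1 was Serpina3k, a serine protease inhibitor, with a Pearson correlation of 0.70 over 644 cells, followed by Apoc1 (0.55), an apolipoprotein, and Cps1 (0.53), the first enzyme of the urea cycle. With suffix 2 the genes most like it were Mup3 (0.46), Apoc3 (0.45) and Serpina3k (0.43) over 620 cells. Mup3 was most like Mup21 (0.41), Mup20 (0.41) and Cyp2e1 (0.35), a pericentral cytochrome P450, with suffix 1, and most like Ttr (0.60), Apoa2 (0.58) and Rbp4 (0.50), which encode secreted carriers of thyroid hormone, lipid and retinol, with suffix 2. Correlations were of log2 of the thinned count plus 1, and the cells of a library share its free RNA and its range of depth. Only genes with a mean of at least 0.5 thinned UMIs per cell were compared, 1161 with suffix 1 and 1142 with suffix 2, and none of these reached 0.3 with Mup11, Mup14 or Obp2a.

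Hepatocytes divide their work along the lobule, from the portal vein to the central vein. Deep cells were ordered by the ratio of 8 pericentral to 8 periportal marker genes and split into 3 groups of equal size, which are ranges of a score with 187 and 171 cells near a boundary. With suffix 1, Mup3 stood at 1595, 1852 and 2460 CPM from the periportal to the pericentral group, and Mup20 at 36409, 37226 and 33131 CPM. With suffix 2, Mup3 stood at 11639, 12387 and 10762 CPM, and Mup20 at 17115, 16700 and 11277 CPM. The Mup3 share of the pair was highest in the pericentral group of both libraries, at 4.20%, 4.74% and 6.91% with suffix 1 and 40.5%, 42.6% and 48.8% with suffix 2. Depth moved with these groups: the median was 29063, 28134 and 11167 UMIs with suffix 1 and 16958, 11650 and 7854.5 with suffix 2. The part of depth in the order was not tested. In every group the share with suffix 2 was several times that with suffix 1.

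Droplets that held other cells contained Mup UMIs too, which bears on how low counts can be read. Lymphocyte-gated cells, which have no hepatocyte role, held on average 48.1 Mup20 UMIs (47.7 to 48.6) and 4.19 Mup3 UMIs (4.04 to 4.34) per cell with suffix 1, and 14.9 (14.6 to 15.2) and 17.6 (17.3 to 17.9) with suffix 2, over 747 and 595 cells. Shallow hepatocyte-gated cells held averages of 57.5 and 4.75 with suffix 1 and 27.2 and 27.9 with suffix 2. Deep hepatocytes held 821 and 41.2 with suffix 1 and 223 and 161 with suffix 2. The median depths of deep hepatocytes and lymphocytes were 24687.5 and 4685 UMIs for suffix 1 and 12133 and 4230 for suffix 2. In CPM, Mup20 stood at 35317 against 8411 and 15539 against 2886, and Mup3 at 1773 against 731 and 11210 against 3418. Per 1000 Alb UMIs, Mup3 was lower in deep hepatocytes, at 46.6 against 80.6 for suffix 1 and 277 against 371 for suffix 2.

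The proportion of Mup3 to Mup20 differed far more between the libraries than between classes of cell within a library. In T and NK, B, Kupffer or macrophage, neutrophil, endothelial, cholangiocyte, stellate and erythroid gates, the Mup3 share of the pair lay between 6.83% and 8.04% with suffix 1. With suffix 2 it lay between 50.4% and 56.1%. Deep hepatocytes had a lower share than all of these, at 4.78% (4.72% to 4.84%) and 41.9% (41.7% to 42.1%), and shallow hepatocyte-gated cells had 7.62% and 50.6%, within the ranges of the other gates. Relative to Alb, Mup20 was alike in deep hepatocytes and lymphocytes of suffix 1, at 929 and 927 UMIs per 1000 Alb UMIs, and stood at 384 and 313 with suffix 2.

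**Figure D3:**
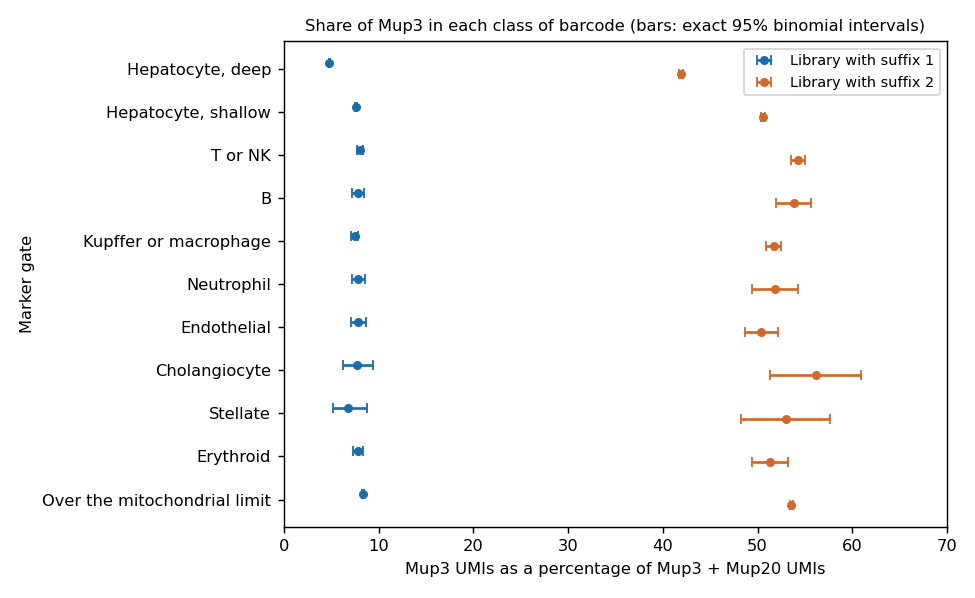
Mup3 UMIs as a percentage of Mup3 and Mup20 UMIs (x axis) in each class of barcode (y axis), blue for suffix 1 and orange for suffix 2, with exact 95% binomial intervals. All classes with suffix 1 lie between 4.78% and 8.37%, all with suffix 2 between 41.9% and 56.1%, and deep hepatocytes are the lowest of each.

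For Mup11 the order of lymphocytes and deep hepatocytes depended on the measure. Lymphocytes of suffix 1 had 7.72 CPM (5.31 to 10.8), an interval that overlaps that of deep hepatocytes (4.74 CPM, 3.70 to 5.98), and those of suffix 2 had 34.9 CPM (28.6 to 42.2), above the 22.7 CPM of deep hepatocytes. Per 1000 Alb UMIs, Mup11 stood at 0.850 in lymphocytes and 0.125 in deep hepatocytes with suffix 1, and at 3.79 and 0.561 with suffix 2. Per cell, deep hepatocytes held 0.110 UMIs (0.0861 to 0.139) against 0.0442 in lymphocytes (0.0304 to 0.0620) for suffix 1, and 0.326 (0.282 to 0.374) against 0.180 (0.147 to 0.217) for suffix 2. After thinning to 1000 UMIs, 0.311% of deep hepatocytes held a Mup11 UMI with suffix 1 and 2.10% with suffix 2, and 0.535% and 2.69% of lymphocytes did. Deep hepatocytes thus stood above lymphocytes in UMIs per cell but not in CPM or in the thinned share, and no order is read from these measures. The higher level with suffix 2 was found in both classes.

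Obp2a was higher in deep hepatocytes by most measures. In deep hepatocytes of suffix 1 thinned to 1000 UMIs, 7.61% of cells held a UMI (5.68% to 9.93%) against 2.28% of lymphocytes (1.33% to 3.62%), and its CPM was 99.3 against 19.9. Before thinning the shares were 53.3% and 10.7%, at medians of 24687.5 and 4685 UMIs per cell. With suffix 2 the thinned shares were 1.13% (0.455% to 2.31%) and 0.504% (0.104% to 1.47%), whose intervals overlap, and the CPM was 22.7 (19.7 to 26.0) against 3.26 (1.57 to 6.003). Per 1000 Alb UMIs, Obp2a stood closer, at 2.61 against 2.19 for suffix 1 and 0.561 against 0.354 for suffix 2.

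For Mup14 the CPM in deep hepatocytes and lymphocytes was 18.9 (16.8 to 21.2) against 8.65 (6.09 to 11.9) with suffix 1, where the intervals lay apart. With suffix 2 it was 8.19 (6.42 to 10.3) against 6.53 (3.99 to 10.1), with overlapping intervals. Those of UMIs per cell lay apart, at 0.439 (0.390 to 0.494) against 0.0495 (0.0349 to 0.0683) for suffix 1 and 0.118 (0.0923 to 0.148) against 0.0336 (0.0205 to 0.0519) for suffix 2, where the median depths were 12133 and 4230 UMIs. The shares thinned to 1000 UMIs overlapped, at 1.55% (0.747% to 2.84%) against 1.07% (0.463% to 2.10%) for suffix 1 and 1.29% (0.559% to 2.53%) against 0.840% (0.273% to 1.95%) for suffix 2. Per 1000 Alb UMIs, Mup14 was lower in deep hepatocytes, at 0.497 against 0.953 and 0.203 against 0.708. As for Mup11, the order depended on the measure and none is read from it.

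Levels also moved with the depth of the cell. Among hepatocyte-gated cells of suffix 1, Mup11 fell from 54.3 CPM at 500 to 1000 UMIs to 4.37 CPM at 20000 to 50000 UMIs, and in suffix 2 from 263 to 14.8 CPM. The fall in suffix 1 was not steady, with 5.02 CPM at 5000 to 10000 UMIs and 7.48 CPM at 10000 to 20000 UMIs. In UMIs per cell Mup11 went the other way between the same ends, from 0.0444 to 0.139 and from 0.194 to 0.391. Mup3 went from 4486 to 1677 CPM and from 21276 to 10559 CPM over the same range. Mup20 went from 53083 to 34786 CPM with a low of 31613 CPM at 2000 to 5000 UMIs in suffix 1, and from 20887 to 15815 CPM with a low of 13973 CPM at 5000 to 10000 UMIs in suffix 2. Obp2a had its lowest levels in the middle as well, at 62.2 and 15.2 CPM. In each of the 6 depth ranges that held at least 20 cells, Mup3 and Mup11 were higher with suffix 2 and Mup20, Mup14 and Obp2a higher with suffix 1, so the direction of the 5 differences was the same at like depth.

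**Figure D4:**
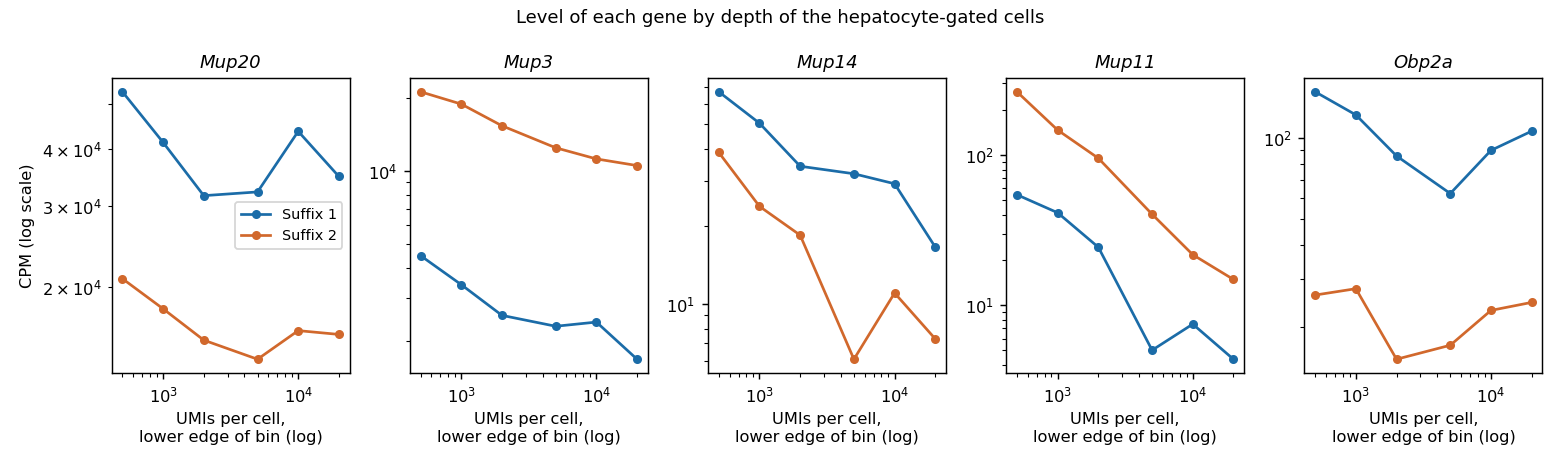
CPM of each gene (y axis, log scale, a scale of its own per panel) in hepatocyte-gated cells grouped by UMIs per cell (x axis, lower edge of the group, log scale), blue for suffix 1 and orange for suffix 2. The 2 lines do not cross in any panel. The CPM of Mup11 is lower in the deepest group drawn (4.37 and 14.8) than in the shallowest (54.3 and 263) in both libraries, with a rise on the way in suffix 1.

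Male-type secretion of growth hormone acts on Mup genes through its receptor (Ghr) and STAT5b, and Socs2 and Cish are feedback inhibitors that STAT5 switches on. Of the 13 genes listed for this axis, 10 reached 10 CPM, of which 0 were at least 2-fold higher with suffix 2 and 3 at least 2-fold higher with suffix 1, against 4.27% and 2.03% of all genes. Cish stood at 30.5 and 3.93 CPM, 7.19 times higher with suffix 1 (5.49 to 11.3), and Socs2 at 32.9 and 4.49 CPM, 6.85 times higher (5.30 to 10.4). The third was Onecut1, a hepatocyte transcription factor, at 165 and 44.6 CPM. Ghr itself was at 640 and 668 CPM, Stat5b at 27.5 and 33.6 CPM and Igf1, the hormone's main circulating effector, at 917 and 922 CPM. The list's median log2 ratio was -0.13. This list and those below were written with earlier results of these data known. Nothing therefore follows from setting their counts beside the shares of all genes.

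Genes known to be higher in male than in female mouse liver did not go one way. Of 15 listed, 14 reached 10 CPM, and 2 were at least 2-fold higher with suffix 2 and 4 with suffix 1, against 4.27% and 2.03% of all genes compared. The median log2 ratio of the list, also written with earlier results of these data known, was -0.15. Those higher with suffix 1 were Cyp7b1, an oxysterol hydroxylase, at 923 and 83.7 CPM, Selenbp2, a selenium-binding protein, at 828 and 130 CPM, Ugt2b38, a glucuronosyltransferase, at 37.7 and 7.30 CPM, and the steroid hydroxylase Cyp2d9 at 946 and 444 CPM. Those higher with suffix 2 were Elovl3, a fatty acid elongase, at 3.87 and 36.4 CPM, and Serpina1e at 1053 and 2362 CPM. None of the 10 listed female-biased genes reached 10 CPM in either library. Cyp17a1 was the highest of them at 2.27 and 6.62 CPM, and Cyp3a41a, Cyp3a44, Sult3a1, A1bg and Sult2a1 had 0 UMIs in both.

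Of the other lipocalin family genes, 11 of 12 listed were in the table and 7 reached 10 CPM. At least 2-fold higher with suffix 2 were 3 of them, with suffix 1 none, where 4.27% and 2.03% of all genes were, and the median log2 ratio was 0.48. This list too was written with earlier results of these data known. Orm1 and Orm2, acute phase proteins that bind drugs in plasma, stood at 10.9 and 590 CPM, 53.3 times higher with suffix 2 (46.4 to 63.7), and at 1.47 and 14.1 CPM, and Lcn2, which binds bacterial siderophores, at 4.41 and 11.8 CPM. Rbp4, the plasma retinol carrier, was at 3974 and 5551 CPM, C8g at 639 and 850 CPM, Ambp at 1422 and 1305 CPM and Apom at 256 and 236 CPM, each less than 2-fold apart. Obp2b, the family gene closest in name to Obp2a, had 0 UMIs in both libraries.

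**Figure D5:**
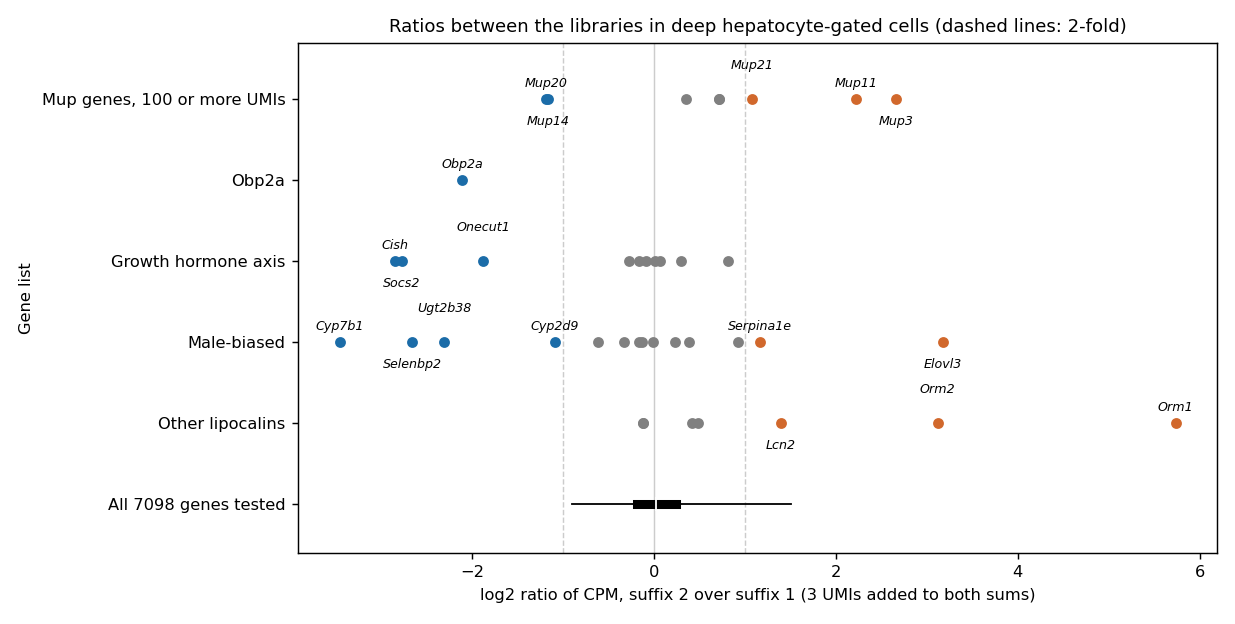
Log2 ratio of CPM, suffix 2 over suffix 1, in deep hepatocyte-gated cells (x axis) for each gene of the lists on the y axis, orange where at least 2-fold higher with suffix 2, blue with suffix 1 and grey otherwise. The bar at the bottom shows the central 95% (thin) and 50% (thick) of all 7098 genes compared, from -0.90 to 1.51 and from -0.18 to 0.24. Mup3 and Mup11 lie beyond its right end, and Mup20, Mup14 and Obp2a beyond its left end.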

How the data were processed

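Single-cell RNA sequencing was done on 2 mouse liver libraries (10x Genomics 3′ v3.1 chemistry). Per the submitters' processing notes, Cell Ranger 7.1.0, STAR 2.7.2a, bcl2fastq 2.20.0 and the build mm10 were used, and the authors deposited whole UMI counts per gene and barcode for both libraries in 1 table, without normalization. The table held 32285 genes and 32316 barcodes. No label ties a barcode suffix to a genotype, so neither library was assigned to a group and no comparison of genotypes or test was made.

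Barcodes with at least 500 UMIs, at least 200 genes and at most 25% mitochondrial UMIs were kept, which left out for the mitochondrial limit alone 5675 (32.8%) and 8886 (59.2%) barcodes (suffix 1, then suffix 2). A cell passed the hepatocyte gate when 10 markers made up at least 5% of its UMIs and the markers of 7 other classes at most 1%. Other classes needed at least 3 detected markers of their own and fewer of every other class. No doublet caller was run. CPM are summed UMIs of the gated cells per 1000000 UMIs. Cells were thinned without replacement. The members and lists were chosen with earlier results of these data known. The genes named are the members, all other Mup genes, the fixed lists of growth hormone axis, sex-biased and lipocalin genes, references, and for likeness the 3 genes of the highest correlation at 0.3 or more. Python 3.11.15, numpy 2.4.6, scipy 1.17.1, pandas 2.3.3, Biopython 1.88 and matplotlib 3.10.9 were used. The calculation of the ratio was checked on simulated counts, where 100% of 200 genes changed 4-fold were past 2-fold among 6834 genes. Those counts held no free RNA, shared reads or spread between cells, so the check says nothing about these or about changes near 2-fold. Positions and transcripts are from GENCODE M21 and promoters from RefSeq, both GRCm38, the assembly that mm10 names. Alternatives to the filters, gate, depth limit and scaling were tried. Reads shared by near-identical genes, free RNA and depth could affect the low counts, which was not tested.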

Additional observations from a re-analysis of the deposited data

Results flagged for a closer look

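The barcodes left out for more than 25% mitochondrial UMIs also held the members, far above the 0.16 and 0.11 CPM that a count of 0 would allow there. The 5 genes summed to 25605 CPM (25532 to 25678) in 5675 barcodes with suffix 1 and to 21161 CPM (21106 to 21217) in 8886 barcodes with suffix 2. Mup3 made up 8.37% and 53.6% of its sum with Mup20 there, above the 4.78% and 41.9% of deep hepatocytes. Mup11 stood at 26.5 and 137 CPM, or 0.926 and 4.35 UMIs per 1000 Alb UMIs.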

How the results depend on the processing

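No paired analysis was possible because each group has 1 sample and neither library could be tied to one. The summed level of the members changed with nearly every choice, by less than 1.5 times, and the intervals are narrow, so most changes exceed counting error. In CPM, for suffix 1 and then suffix 2, the sum was 25589 and 27661 with a mitochondrial limit of 10%, 36166 and 26152 with 50%, and 33352 and 22559 with none. It was 36546 and 26971 in cells of at least 3000 UMIs, and 37399 with suffix 1 in cells of at least 10000 UMIs. It was 34178 and 24644 with hepatocyte markers of at least 3%, 38983 and 29187 with at least 10%, and 38353 and 28385 with at least 8% and other markers of at most 0.2%, a choice made after seeing the data. It was 44382 and 31232 without mitochondrial UMIs in the total, 38392 and 26004 scaled to Alb, 37840 and 26421 without the cells above the 95th percentile of UMIs, and 28034 and 20454 with the lymphocyte CPM subtracted. For suffix 1 it was 37703 as a mean over cells and 37780 after thinning to 5000 UMIs. With the limit of 10% the order of the libraries turned, over 147 and 209 cells, and the log2 ratio of Mup20 was then -0.75. The cause was not tested. Without the barcode sequences found in both libraries, also chosen after seeing the data, both sums stayed within the counting interval.

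Of the 5 members, only Mup3 and Mup20 reached 100 CPM. When only genes of that level were compared, both were at least 2-fold apart, as were 6.03% of the 1243 genes. With a 4-fold limit, 3 members were past it, against 1.48% of 7098 genes. Under the other 18 settings the count of members was 4 or 5. The share of all genes compared then ran from 4.51% with the stricter gate to 20.7% of 2359 genes with the lymphocyte CPM subtracted. No member changed direction under a setting that gave a ratio. The log2 ratio of Mup14 was -0.98 with a mitochondrial limit of 50%, -0.72 with none and -0.99 at 10000 UMIs. With the lymphocyte CPM subtracted, Mup11 came to -2.97 and -12.3 CPM and had no ratio. Mup11 and Mup14 rest on few UMIs, 71 to 283 each per library, and share sequence with other copies. The parts of depth, free RNA and shared sequence in their counts were not tested.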
